A study of Mus musculus with 20 samples.

Results

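The comparison described here set the 5 APOE2 libraries against the 5 libraries labelled APOE4D, a second set of APOE4 mice, 10 of the 20 libraries of the series. The members were chosen by the genotype in the label of each library. Each library held the hemibrain RNA of 1 female C57bl/6 mouse at 18 MO. All 20 mice were targeted replacement animals, in which a human APOE allele stands in place of mouse Apoe under the murine promoter. APOE2 mice carried human APOE2. APOE4D mice carried human APOE4 by their genotype label, and the sources used here do not say what the letter D marks. The other groups were APOE4 (5 mice) and APOE3 (5 mice), and the study describes its APOE2, APOE3 and APOE4 mice as homozygous for their allele. The animal IDs began with F or FH, with 3 F and 2 FH mice in APOE2 and 2 F and 3 FH mice in APOE4D. The hemibrain is a mixture of neurons, glia, vessels and blood, so fewer cells of a type and less RNA per cell cannot be told apart in these values.

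APOE is the main lipid carrier of the brain. It is made largely by astrocytes, and by microglia when they are activated, and delivers cholesterol and other lipids to neurons through receptors of the LDL receptor family. The human alleles differ by single amino acids that change receptor and lipid binding, and APOE4 is linked to a higher and APOE2 to a lower risk of Alzheimer's disease. The comparison asked which genes differ between mice carrying these alleles in old age, and which of the APOE2 differences from APOE4 hold against the second APOE4 cohort.

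The libraries held 42723532 to 44852581 counted reads in APOE2 and 32404258 to 37947330 in APOE4D, so the depth ranges of the groups did not overlap. The mitochondrial share was 6.21% to 6.81% in APOE2 and 6.51% to 7.11% in APOE4D. Xist, the RNA that silences an X chromosome in female cells, had 16079 to 20073 reads in APOE2 libraries and 12151 to 17629 in APOE4D libraries, and the Y-linked Ddx3y had at most 4 reads in APOE2 libraries and 3 in APOE4D libraries. The lowest APOE3 library had 48 Xist reads, while no APOE3 library had more than 3 reads of Uty, Kdm5d, Ddx3y or Eif2s3y, all Y-linked, and no library of the other groups more than 5. With the 5 APOE3 libraries left out of the fit the 881 differing genes described below became 1133. Reads were assigned to mouse Apoe in each library although the gene is replaced. Apoe, on chromosome 7 from 19696244 to 19701310 of GRCm38, had values of 36.2, 42.3, 38.1, 40.4 and 40.7 CPM (counts scaled to a common library size) in APOE2 and of 37, 36.7, 42.6, 42.1 and 39.6 CPM in APOE4D. The group means of Apoe were 39.5 ± 2.40 CPM in APOE2 and 39.6 ± 2.76 CPM in APOE4D (SD, n = 5 each), and an exact two-sided permutation test over the 252 splits gave p = 0.952, where 0.00794 is the smallest p it allows. The counts are of the mouse gene symbol, and human APOE was not analysed here.

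Across the transcriptome, among differing genes of at least moderate level (mean log2 CPM of 1 or more), the 12 genes that stood furthest above APOE4D in APOE2 were mostly copies of abundant housekeeping genes, and among the 12 furthest below were 4 long noncoding RNAs, 5 protein-coding genes and a pseudogene, with 2 loci not matched to RefSeq. Among protein-coding genes, the endosomal adaptor gene Wdfy1 was higher, and Zfp14, Aim2 and 8 interferon-induced GTPases were lower. Of 20968 genes tested with edgeR's quasi-likelihood test, 881 were differentially expressed genes (DEGs, Benjamini-Hochberg adjusted p under 0.05), or 4.2%. Of these, 410 were higher in APOE2 (1.96%) and 471 were lower (2.25%). The median size of the DEG changes was 0.35 on the log2 scale, and 307 DEGs differed by 1.5-fold or more (1.46% of genes tested, with 145 higher, 0.692%, and 162 lower, 0.773%). A fold of 4 or more was reached by 91 DEGs, 59 higher and 32 lower. The CPM ranges of the groups did not overlap for 648 DEGs, against 1160 of all genes tested (5.53%). The labels do not say whether mice of a group were littermates, so p-values measure the spread between these mice only. With the ID series (F or FH) as a term 818 genes were DEGs. Among the F mice alone (3 APOE2 and 2 APOE4D) there were 290, and among the FH mice alone (2 APOE2 and 3 APOE4D) there were 691.

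**Figure D1:**
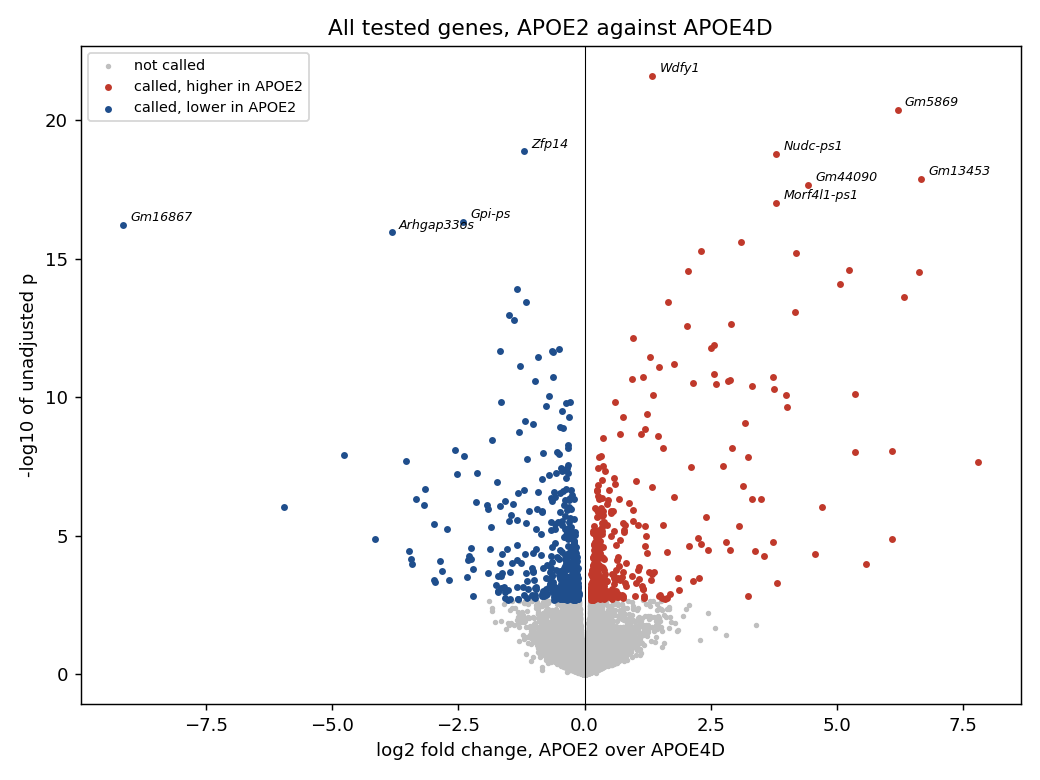
Each point is a tested gene, with the log2 fold change of APOE2 over APOE4D on the horizontal axis and the -log10 of the unadjusted p on the vertical axis; colored points are DEGs and the 10 genes with the smallest p are named. Past a fold of 4 there are 59 of the 410 higher DEGs (red) and 32 of the 471 lower DEGs (blue).

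Pseudogenes made up 5.01% of the tested genes and 6.70% of the DEGs, but 37 of the 145 DEGs (25.5%) that were at least 1.5-fold higher in APOE2 and 30 of the 59 (50.8%) that were at least 4-fold higher. Of the 12 genes with the largest increase among DEGs of at least moderate level, 11 were annotated as pseudogenes. Most of them are copies of an mRNA that was reverse transcribed and inserted elsewhere in the genome, and differ from the parent gene by few bases. Stretches of 80 bases from 4 copies are shown beside the coding sequence of the parent. The level of a copy rests on reads that were assigned to it and not to the parent. They are GENCODE M39 transcript sequences (GRCm39 assembly, transcript strand, 5′ to 3′), with the bases at which copy and parent differ in capitals.
Gm13453: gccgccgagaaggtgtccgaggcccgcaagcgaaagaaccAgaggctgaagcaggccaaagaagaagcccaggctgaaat
Atp6v1g1: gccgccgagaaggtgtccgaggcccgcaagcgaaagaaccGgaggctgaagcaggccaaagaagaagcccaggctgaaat
Gm11942: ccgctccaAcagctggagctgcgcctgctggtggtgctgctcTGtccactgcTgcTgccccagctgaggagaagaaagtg
Rplp1: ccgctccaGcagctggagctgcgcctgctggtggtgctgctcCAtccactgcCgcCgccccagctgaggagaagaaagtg
Gm15459: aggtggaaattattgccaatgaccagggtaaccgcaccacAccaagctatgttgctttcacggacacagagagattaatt
Hspa8: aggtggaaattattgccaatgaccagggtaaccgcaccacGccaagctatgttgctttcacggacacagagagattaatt
Gm5869: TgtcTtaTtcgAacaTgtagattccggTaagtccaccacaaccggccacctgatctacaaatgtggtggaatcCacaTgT
Eef1a1: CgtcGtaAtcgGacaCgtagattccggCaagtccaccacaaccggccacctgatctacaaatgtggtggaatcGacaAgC
The stretch of Gm13453 differs from Atp6v1g1 at 1 base, that of Gm11942 from Rplp1 at 5, that of Gm15459 from Hspa8 at 1 and that of Gm5869 from Eef1a1 at 9. Over the whole copy, Gm13453 matches Atp6v1g1 at 99.4% of 357 bases, Gm11942 matches Rplp1 at 97.4% of 345, Gm15459 matches Hspa8 at 99.7% of 1941 and Gm5869 matches Eef1a1 at 96.3% of 1257. The reads were 50 bases long, and 67.9% of the 50-base words of Gm13453, 29.4% of those of Gm11942, 86.9% of those of Gm15459 and 23.6% of those of Gm5869 are found unchanged in the parent mRNA. The submitters' processing notes name featureCounts as the counter and the study's methods name RSEM, and neither states how reads that fit both places were counted, so the counts of these copies are uncertain.

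Gm13453, a copy of the gene for a G subunit of the vacuolar proton pump (chromosome 2, 40126908 to 40127927), was at 15.6, 18.6, 18.6, 8.35 and 16.8 CPM in APOE2 and at 0.106 to 0.220 CPM in APOE4D (log2 fold change 6.67, standard error 0.26, adjusted p = 5.47e-15). Gm11942, a copy of the gene for the ribosomal stalk protein Rplp1 (chromosome 4, 32964806 to 32965273), was at 97.6, 104, 104, 53.0 and 112 CPM in APOE2 and at 0.717 to 1.29 CPM in APOE4D (6.63, standard error 0.24, adjusted p = 4.11e-12). Gm15459, a copy of the gene for the constitutive chaperone Hspa8 (chromosome 5, 5781529 to 5783633), was at 93.5, 111, 128, 73.1 and 105 CPM in APOE2 and at 4.70 to 6.77 CPM in APOE4D (4.2, standard error 0.15, adjusted p = 1.02e-12). In each of these 3 copies the lowest APOE2 mouse was FH111. It lay above every APOE4D mouse, which the choice of genes without overlap between the groups required. Gm5869, Gm13456 and Eef1a1-ps1 are all copies of Eef1a1, the translation elongation factor that brings aminoacyl-tRNA to the ribosome. Gm5869 averaged 7.04 ± 1.70 CPM in APOE2 and 0.0926 ± 0.0253 CPM in APOE4D (SD, n = 5 each), Gm13456 averaged 30.0 ± 7.09 CPM in APOE2 and 5.27 ± 0.643 CPM in APOE4D, and Eef1a1-ps1 averaged 6.53 ± 1.19 CPM in APOE2 and 1.31 ± 0.247 CPM in APOE4D. The remaining pseudogenes of the 12 were Gm9008, Gm10036, Morf4l1-ps1, Nudc-ps1 and Gm11868, with log2 fold changes of 6.33, 5.24, 3.80, 3.79 and 3.10. The twelfth was Eif3j2, a protein-coding gene nearly identical to Eif3j1, a subunit of translation initiation factor 3. Eif3j2 averaged 8.88 ± 2.25 CPM in APOE2 and 1.24 ± 0.265 CPM in APOE4D (SD, n = 5 each). In APOE4 and APOE3 mice Gm11942 averaged 1.09 and 0.627 CPM, near its APOE4D level.

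Among the parents of these copies some were lower in APOE2, Nudc was higher and others did not pass the test. Eif3j1 was lower, at 8.18 ± 3.94 CPM in APOE2 and 18.5 ± 0.541 CPM in APOE4D (SD, n = 5 each, log2 fold change -1.17, adjusted p = 0.00307), and the sum of Eif3j1 and Eif3j2 was 17.1 ± 1.83 CPM in APOE2 and 19.7 ± 0.679 CPM in APOE4D. Hspa8 averaged 544 ± 107 CPM in APOE2, against 674 ± 21.9 CPM in APOE4D (adjusted p = 0.0609), and together with Gm15459 it made 646 ± 93.9 CPM in APOE2 and 680 ± 21.8 CPM in APOE4D. Eef1a1 was lower (log2 fold change -0.18, adjusted p = 0.00289), as were Morf4l1 (-0.27, adjusted p = 3.84e-05) and Cyb5r4 (-0.33, adjusted p = 0.000841), while Nudc was higher (0.27, adjusted p = 2.57e-05). For Rplp1 (-0.22, adjusted p = 0.155) and Atp6v1g1 (0.04, adjusted p = 0.712) no difference passed the threshold. The sum of Gm13453 and Atp6v1g1 was 89.7 ± 6.68 CPM in APOE2 and 72.3 ± 4.18 CPM in APOE4D. The part of shared reads in these copies' difference was not tested.

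The copies were scattered over the genome, while their parents were not. Counting Gpi-ps, described below, 12 of the named copies had a matched parent, and these were 10 different genes, of which 5 lie on chromosome 9, 3 on chromosome 4, 1 on chromosome 2 and 1 on chromosome 7. Over the 37 pseudogenes that were DEGs and at least 1.5-fold higher in APOE2, a parent with a position was matched for 32, and it lay on chromosome 9 for 15 (46.9%) and on chromosome 4 for 11 (34.4%). Of all tested pseudogenes, 869 had such a parent, on chromosome 9 for 7.94% and on chromosome 4 for 5.41%. These shares count each copy, so a parent with several copies, such as Eef1a1, can enter more than once. Of the 33 higher pseudogenes with any matched parent, only 2 lie on chromosome 9 themselves and 3 on chromosome 4. Of the 18 pseudogenes that were at least 1.5-fold lower, 14 had a positioned parent, which lay on chromosome 7 for 5 (35.7%, against 8.4% for all tested pseudogenes) and on chromosome 9 or 4 for 0. Gpi-ps, a copy of the gene for the glycolytic enzyme glucose-6-phosphate isomerase on chromosome 7, is among these. Its level ran over 1.03 to 1.4 CPM in APOE2 and 5.98 to 8.05 CPM in APOE4D (log2 fold change -2.41, adjusted p = 1.22e-13), while Gpi1 itself averaged 554 ± 13.8 CPM in APOE2, against 552 ± 14.9 CPM in APOE4D. This look at the parents was chosen after the values of the copies were seen.

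**Figure D2:**
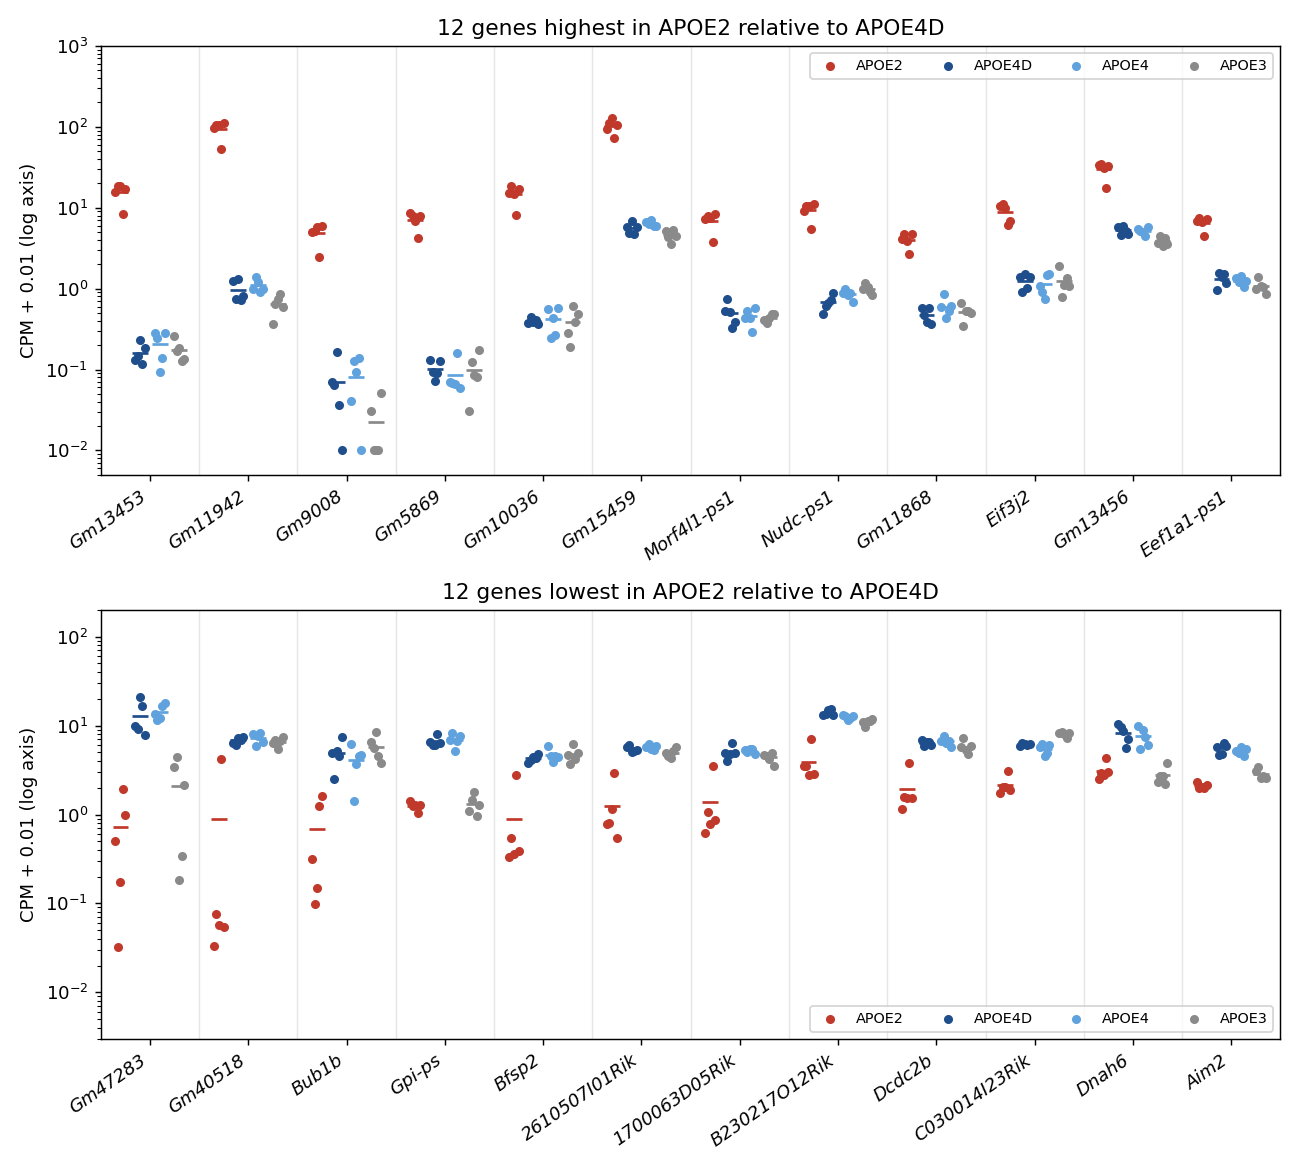
Level of the 12 genes with the largest increase (upper panel) and the 12 with the largest decrease (lower panel) in APOE2 relative to APOE4D among DEGs of at least moderate level, in CPM + 0.01 on a log axis; each point is a mouse, short lines are group means, and groups run APOE2, APOE4D, APOE4, APOE3 from left to right. No APOE2 mouse overlaps an APOE4D mouse in any of the 24 genes, a property that was part of how they were chosen, and a single APOE2 mouse (FH111) sits apart from the others toward APOE4D in most of them.

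Among the 12 genes with the largest decrease at that level, Gm40518, a long noncoding RNA on chromosome 9, had 0.0232 to 0.0664 CPM in 4 APOE2 mice and 4.2 CPM in FH111, against 6.12 to 7.47 CPM in APOE4D (log2 fold change -2.96, standard error 0.68, adjusted p = 0.0183). Bub1b, which encodes the BubR1 kinase of the mitotic spindle checkpoint (chromosome 2), was at 0.302, 0.0885, 0.140, 1.24 and 1.60 CPM in APOE2 and at 2.47 to 7.50 CPM in APOE4D (-2.85, standard error 0.55, adjusted p = 0.00494). Bfsp2, a lens intermediate filament gene (chromosome 9), was at 0.326 to 0.531 CPM in 4 APOE2 mice and 2.80 CPM in FH111, against 3.77 to 4.76 CPM in APOE4D (-2.28, adjusted p = 0.00358). None of these 3 genes reached 10 CPM in any mouse of either group. Dnah6, a dynein heavy chain of motile cilia, averaged 3.10 ± 0.676 CPM in APOE2 and 8.27 ± 1.96 CPM in APOE4D (SD, n = 5 each), and Dcdc2b, a doublecortin family gene, averaged 1.90 ± 1.05 CPM in APOE2 and 6.35 ± 0.429 CPM in APOE4D. Gm47283 had the largest decrease of the 12, at 0.718 ± 0.771 CPM in APOE2 and 12.9 ± 5.61 CPM in APOE4D (-4.16, standard error 0.67, adjusted p = 0.00108). The noncoding loci 2610507I01Rik, 1700063D05Rik and B230217O12Rik fell by 2.15, 1.88 and 1.83 on the log2 scale. C030014I23Rik fell by 1.5. The mean APOE3 level lay nearer APOE2 than APOE4D for 4 of the 12 lowered genes (Gm47283, Gpi-ps, Dnah6 and Aim2) and nearer APOE4D for the other 8, whereas it lay nearer APOE4D for all 12 of the raised genes.

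FH111 was the APOE2 mouse nearest to the APOE4D mean for all 12 of the raised genes and for 9 of the 12 lowered genes. Over the 307 DEGs of 1.5-fold or more it was nearest for 165 (53.7%), against 20 to 50 for each of the other 4 APOE2 mice. No APOE4D mouse stood apart in the same way, with 53 to 71 of the 307 genes for each. Over the 37 raised pseudogenes, the level in FH111 was 0.615 times the mean of the other APOE2 mice at the median (range 0.12 to 1.21). FH111 lay above every APOE4D mouse for all 37, but these were picked as higher in the same libraries, FH111 included. Leaving FH111 out gave 825 DEGs.

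The 10 genes with the smallest p included 5 outside the 24 above, either because their change was smaller (Wdfy1 and Zfp14) or because their mean level was below the minimum set for those lists (Gm44090, Arhgap33os and Gm16867). Wdfy1, whose product binds phosphatidylinositol 3-phosphate on early endosomes and recruits an adaptor to Toll-like receptors there, was at 51.9, 53.6, 56.1, 56.3 and 57.3 CPM in APOE2 and at 20.5 to 22.4 CPM in APOE4D (log2 fold change 1.35, standard error 0.05, adjusted p = 5.33e-18). Zfp14, a zinc finger gene on chromosome 7, was at 12.4 to 15.9 CPM in APOE2 and at 30.7 to 33.8 CPM in APOE4D (-1.20, standard error 0.06, adjusted p = 8.87e-16). The groups were far apart for both genes, and APOE3 was near APOE2 for Wdfy1 (52.5 CPM) and near APOE4D for Zfp14 (30.6 CPM). Gm44090 averaged 2.67 ± 0.376 CPM in APOE2, against 0.122 ± 0.0268 CPM in APOE4D (SD, n = 5 each), with 3.50 CPM in APOE3. Arhgap33os, a noncoding RNA beside Arhgap33 on chromosome 7, averaged 0.123 ± 0.0499 CPM in APOE2, against 1.79 ± 0.329 CPM in APOE4D, with 0.101 CPM in APOE3. Gm16867 had 0 reads in all 5 APOE2 libraries and 297 reads in the 5 APOE4D libraries together, which makes it at least 125-fold lower in APOE2 when 3 reads over the group are taken as the floor. That floor covers counting error only. Pla2g4e, a cytosolic phospholipase A2 that makes N-acyl phosphatidylethanolamines, was at 67.0, 64.1, 64.6, 31.0 and 34.5 CPM in APOE2 and at 11.1 to 13.5 CPM in APOE4D (2.11, standard error 0.22, adjusted p = 7.32e-06). The last 2 of these APOE2 values are those of the FH mice. Its chromosome 2 neighbor Pla2g4b was lower, at 0.506 ± 0.392 CPM in APOE2 and 1.19 ± 0.212 CPM in APOE4D.

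The DEGs were unevenly spread over the genome. On chromosome 9, 11.7% of 1076 tested genes were DEGs (49 higher and 77 lower), and on chromosome 4, 104 of 1153 (9.02%, 52 in each direction), against 4.2% of all tested genes. On the other autosomes the share ran from 2.12% (chromosome 14) to 4.96% (chromosome 11), and it was 2.30% on the X chromosome. Of the 49 higher and 77 lower DEGs on chromosome 9, 98 were also DEGs in the same direction against APOE4. The same was true of 76 of the 104 DEGs on chromosome 4 and of 631 of all 881 DEGs (71.6%). In windows of 5 Mb with at least 10 tested genes (459 windows), 13 had 20% or more of their genes called, and these windows held 160 of the 826 DEGs with a position (19.4%) but 3.5% of the tested genes. A further 172 windows held no DEG.

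The densest window, chromosome 9 from 75 to 80 Mb, had 14 DEGs of 44 tested genes (31.8%). It includes Eef1a1 and Cd109, and Cgas, the cytosolic DNA sensor that makes cyclic GMP-AMP, which fell by 1.10 on the log2 scale. On chromosome 2, 18 of 63 genes from 120 to 125 Mb (28.6%) and 16 of 59 from 115 to 120 Mb (27.1%) were DEGs, among them Pla2g4e, Pla2g4b, Bub1b, Eif3j1 and B2m. On chromosome 9 from 45 to 50 Mb 14 of 50 were DEGs (28.0%), and from 40 to 45 Mb 15 of 67 (22.4%). These windows include the sodium channel genes Scn2b and Scn4b, the serotonin receptor gene Htr3a, the sorting receptor gene Sorl1 and the parent gene Hspa8. Fxyd2, a modulator of the sodium pump on chromosome 9, was higher by 1.66 on the log2 scale. On chromosome 4 from 130 to 135 Mb 22 of 98 were DEGs (22.4%), among them Sytl1 and the parent gene Nudc. Cgas and Fxyd2 were singled out after their values were seen. Of the 98 genes named by rule for their differences, 17 lie on chromosome 9. Of the 826 DEGs with a position, 49 higher and 77 lower ones lie there. The named genes were drawn largely from the DEGs, so the 17 are no separate sign of an excess on chromosome 9. Each of the windows described held DEGs of both directions.

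**Figure D3:**
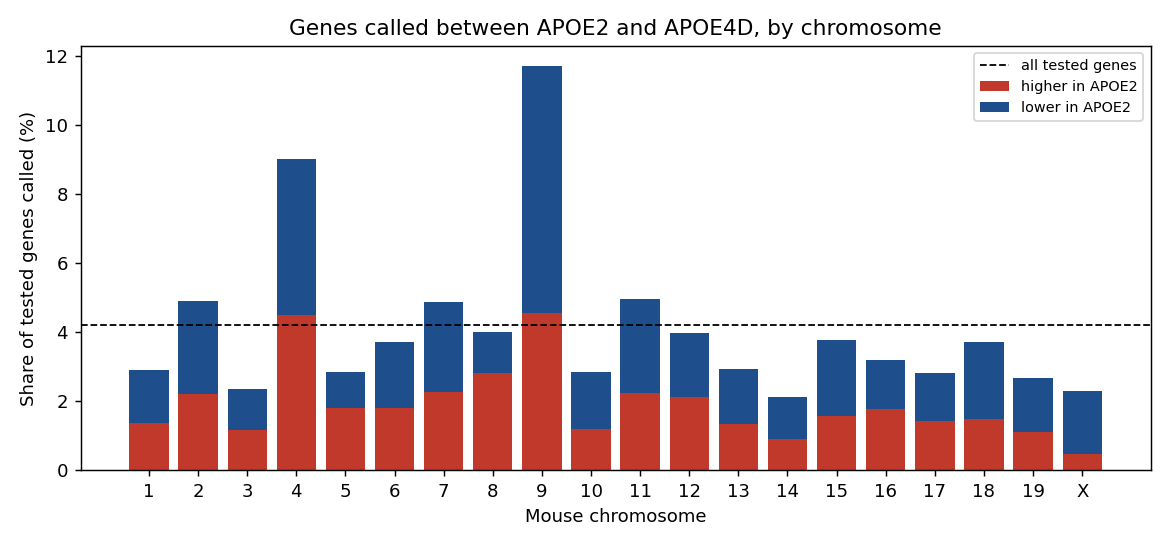
Share of tested genes that were DEGs between APOE2 and APOE4D on each mouse chromosome, in percent, split into genes higher (red, bottom of each bar) and lower (blue) in APOE2; the dashed line is the share over all tested genes, 4.2%. Chromosomes 9 (11.7%) and 4 (9.02%) stand above the others, which run from 2.12% to 4.96%.

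Of the interferon-induced GTPases, 8 of 22 tested were lower in APOE2 and 0 were higher. The interferon-induced GTPases are guanylate-binding proteins and immunity-related GTPases that cells make in answer to interferon and that attack membranes around intracellular pathogens. These lists were chosen with results of these data known. Of all tested genes, 2.25% were lower. The median log2 fold change of the 22 was -0.44, against 0.00 over all tested genes, and all 22 were below 0 against 49.9% of all tested genes. Against APOE4, where 3.51% of all tested genes were lower and 3.88% higher, 11 were lower, and 7 were lower in both comparisons, which share the 5 APOE2 libraries. The summed level of the 22 was 34.3 to 50.2 CPM in APOE2 and 58.1 to 77.9 CPM in APOE4D, without overlap.

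Igtp, an immunity-related GTPase, was at 2.39, 2.61, 2.68, 4.18 and 3.10 CPM in APOE2 and at 6.48, 6.01, 7.15, 6.22 and 8.32 CPM in APOE4D. Its log2 fold change was -1.19 (standard error 0.13, adjusted p = 2.36e-07), with FH111 the highest APOE2 mouse. Irgm2, beside it on chromosome 11, fell by 1.01 (adjusted p = 0.00912), and both lie in the window from 55 to 60 Mb in which 14 of 65 genes (21.5%) were DEGs. Irgm1, on the same chromosome outside that window, was at 8.58 to 10.1 CPM in APOE2 and at 11.7 to 15.0 CPM in APOE4D (-0.45, standard error 0.08, adjusted p = 0.000412). The guanylate-binding protein genes Gbp3 (-0.95, adjusted p = 0.00218), Gbp2 (-0.42, adjusted p = 0.0399) and Gbp11 (-0.57, adjusted p = 0.0470) were lower too, as were Gm4951 (-1.63, adjusted p = 0.00312) and Iigp1 (-0.84, adjusted p = 0.0362). Gbp11 did not pass the threshold against APOE4 (-0.17, adjusted p = 0.620). Near-identical relatives exist in both families, so reads may be split between members.

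Interferon-responsive promoters often hold an interferon-stimulated response element, with the core GAAANNGAAA. That core was searched on both strands in RefSeq promoter windows (GRCm38.p6, 250 bases before to 50 after the start), and matches may overlap each other. It was present for 11 of the 13 GTPase genes with a window (84.6%), for 17 of 37 interferon response genes (45.9%) and for 1079 of 27025 genes overall (3.99%). Stretches of up to 60 bases upstream of 4 lowered members are shown 5′ to 3′ on the strand of the gene, with the matches in capitals. They lie at chr11:58199497-58199555 (Igtp, plus strand), chr11:58214888-58214947 (Irgm2, plus strand), chr11:48871421-48871475 (Irgm1, minus strand) and chr3:142559980-142560039 (Gbp3, plus strand).
Igtp: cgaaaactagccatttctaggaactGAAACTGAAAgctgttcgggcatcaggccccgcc
Irgm2: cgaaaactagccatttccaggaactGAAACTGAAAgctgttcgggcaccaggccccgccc
Irgm1: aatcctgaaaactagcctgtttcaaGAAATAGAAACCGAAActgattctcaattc
Gbp3: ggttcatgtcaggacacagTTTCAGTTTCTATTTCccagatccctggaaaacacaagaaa
The capitals in Gbp3 are the core read on the other strand. A match of these letters is a description of the sequence and not a measured site.

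**Figure D4:**
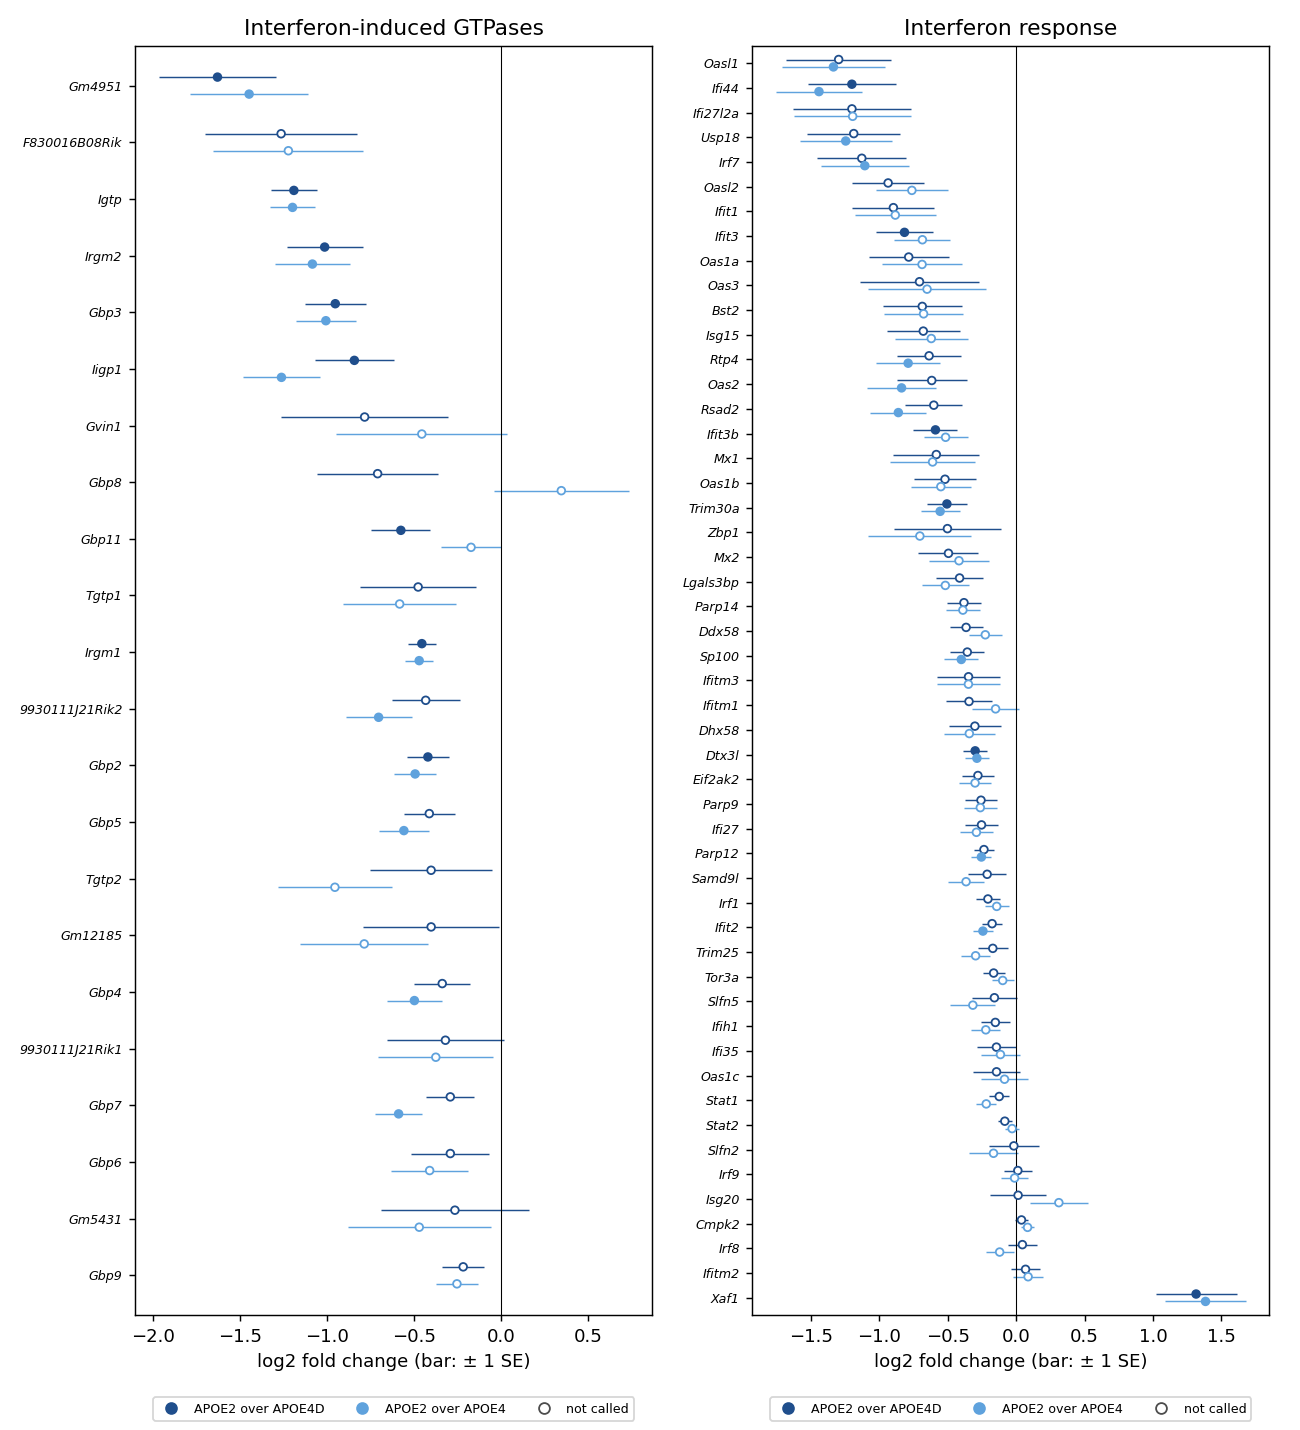
Log2 fold change with its standard error for each tested member of the interferon-induced GTPase list (left, 22 genes) and the interferon response list (right, 51 genes), APOE2 over APOE4D in dark blue and APOE2 over APOE4 in light blue; filled points are DEGs. All 22 GTPases lie left of 0 against APOE4D, and on the right panel Xaf1 is the filled point above 0, at 1.32.

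Of 51 tested genes of the wider interferon response, 5 were lower and 1 was higher, against 2.25% and 1.96% of all tested genes, and the median log2 fold change was -0.35, with 45 of 51 below 0. Against APOE4, 12 were lower and 1 higher, where 3.51% of all tested genes were lower and 3.88% higher. Ifit3, an antiviral effector, was at 6.09 to 11.1 CPM in APOE2 and at 9.92 to 19.1 CPM in APOE4D (-0.82, adjusted p = 0.0308), and the groups overlapped. Ifi44 fell by 1.20 (adjusted p = 0.0372), Ifit3b by 0.59, Trim30a by 0.51 and Dtx3l by 0.30. Xaf1, a proapoptotic interferon-induced gene, ran the other way, at 44.4, 20.4, 27.8, 7.82 and 21.5 CPM in APOE2 and at 8.37 to 11.5 CPM in APOE4D (1.32, standard error 0.30, adjusted p = 0.0165). FH111 was the exception, below every APOE4D mouse for Xaf1. The count of lowered response genes was 0 when F74M or F42N (APOE2) or F12M or FH85 (APOE4D) was left out, 1 without FH111 (APOE2) or F19M (APOE4D), and 17 when the APOE3 libraries were left out of the fit. The GTPase count was 5 to 7 with any single library left out, and it was 5 without F42N (APOE2) or without F12M, FH85 or FH51 (APOE4D). The markers of microglia and border macrophages had summed levels of 1350 to 1510 and 87.5 to 118 CPM in APOE2 and of 1300 to 1400 and 86.3 to 110 CPM in APOE4D, so both overlapped, and their part in the interferon genes was not tested.

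The AIM2-like receptors sense DNA in the cytosol and nucleus. Of 7 tested members, 3 were lower, against 2.25% of all tested genes, and the median was -0.62. Aim2 itself, which nucleates an inflammasome, was at 1.99 to 2.30 CPM in APOE2 and at 4.66 to 6.43 CPM in APOE4D (-1.40, standard error 0.11, adjusted p = 1.44e-10). Ifi213 (-2.25, adjusted p = 0.00417) and Ifi204 (-1.0, adjusted p = 0.0417) were below 1 CPM on average in both groups. Aim2 lies on chromosome 1 in a cluster of related genes, so its reads may be shared. Of 26 genes of MHC class I antigen presentation, B2m and H2-T24 were lower and Pdia3, a peptide-loading oxidoreductase, was higher by 0.17. B2m, the light chain of MHC class I, was at 79.0, 76.8, 67.3, 95 and 99.5 CPM in APOE2 and at 106 to 132 CPM in APOE4D (-0.47, standard error 0.12, adjusted p = 0.0299). Of 36 tested inflammasome and Toll-like receptor genes, 3 were lower and 1 was higher, against 2.25% and 1.96% of all tested genes. The lower ones were Aim2, Nlrp1b (-1.0) and the adaptor gene Pycard (-0.34, adjusted p = 0.0451). Wdfy1 was the higher one (1.35). Cd59a, which blocks the terminal complement complex, was lower at 11.6 ± 1.90 CPM in APOE2 and 19.7 ± 1.22 CPM in APOE4D (SD, n = 5 each, -0.76, adjusted p = 7.46e-08).

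Of 77 tested nuclear genes of the respiratory chain and ATP synthase, 7 were higher in APOE2 and 0 lower, against 1.96% and 2.25% of all tested genes. Their median was 0.06 against 0.00 over all genes, and 20 of 77 were below 0. Against APOE4, 18 were higher and 1 lower, where 3.88% of all tested genes were higher and 3.51% lower. Atp5j2, a subunit of ATP synthase, was at 163 to 177 CPM in APOE2 and at 128 to 149 CPM in APOE4D (0.26, standard error 0.04, adjusted p = 0.000167). Atp5l, another subunit, was at 22.6 to 26.9 CPM in APOE2 and at 18.7 to 21.4 CPM in APOE4D (0.29, adjusted p = 0.00145). The cytochrome oxidase genes Cox6b1 (0.21), Cox7a2 (0.19) and Cox7c (0.17) and the complex I genes Ndufab1 (0.16) and Ndufb6 (0.14) were the others. Of these 7, Atp5l had the largest change, 0.29 on the log2 scale. Atp5l and Cox7a2 lie in the dense windows of chromosome 9 described above. Of 40 genes of complex assembly, Ndufaf6, Uqcc2 and Uqcc3 were higher and Lyrm7, a complex III assembly factor, was lower. Lyrm7 was at 6.70, 6.06, 6.32, 9.73 and 4.92 CPM in APOE2 and at 15.7 to 17.4 CPM in APOE4D (-1.28, standard error 0.10, adjusted p = 4.23e-09). Pkm, the last enzyme of glycolysis, was the single DEG among 39 glycolytic and citric acid cycle genes (-0.22, adjusted p = 0.00132). For the 10 mitochondrially encoded mRNAs tested, 0 were DEGs by edgeR, DESeq2 or limma-voom. By edgeR 2 had an unadjusted p under 0.05, as did 3263 of all 20968 tested genes.

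Of all tested genes, 1.96% were higher and 2.25% lower in APOE2, against which the counts of synaptic and ion channel genes are given here. The DEGs went both ways, and apart from Sytl1 the named ones changed by less than a fold of 2. Of 52 genes of the synaptic vesicle and release machinery, 2 were higher and 4 lower. Sytl1, a synaptotagmin-like Rab27 effector on chromosome 4, was at 6.86, 6.70, 8.02, 4.2 and 6.00 CPM in APOE2 and at 1.29 to 1.83 CPM in APOE4D (2.06, standard error 0.14, adjusted p = 3.86e-12). Cplx1, the complexin that clamps and promotes vesicle fusion, was at 757 to 841 CPM in APOE2 and at 676 to 726 CPM in APOE4D (0.21, adjusted p = 0.000131). Syt5 (-0.19), Sh3gl2 (-0.16), Sytl2 (-0.19) and the syntaxin gene Stx1a (-0.19) were lower. Of 57 potassium channel genes 3 were higher and 5 lower, with Kcnip3 at -0.33 and Kcnab3 at 0.32. The 2 lowered sodium channel beta subunits, Scn2b (-0.21, adjusted p = 0.000268) and Scn4b (-0.27, adjusted p = 0.000478), are neighbors on chromosome 9. The interneuron genes Pvalb (0.34, adjusted p = 6.56e-05) and Htr3a (-0.58, adjusted p = 6.06e-05) changed in opposite directions. Cort, the cortistatin gene of a set of interneurons, was at 3.10 to 3.78 CPM in APOE2 and at 5.30 to 8.28 CPM in APOE4D (-0.84, adjusted p = 0.000153).

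APOE and its receptors pass through endosomes, where sorting proteins direct them to recycling or to lysosomes. Of 54 tested genes, Wdfy1, Rab4a and Sorl1 were higher and Vps33a and Washc2 lower, where 1.96% of all tested genes were higher and 2.25% lower. Rab4a, a GTPase of fast recycling, was at 49.7 to 53.5 CPM in APOE2 and at 41.0 to 44.9 CPM in APOE4D (0.26, standard error 0.04, adjusted p = 3.82e-05). Sorl1, a sorting receptor that binds the amyloid precursor protein and APOE, was at 261, 281, 326, 289 and 294 CPM in APOE2 and at 237 to 256 CPM in APOE4D (0.23, standard error 0.04, adjusted p = 0.00100). Against APOE4 Sorl1 was not a DEG (0.09, adjusted p = 0.208), and it lies in a dense window of chromosome 9. Ykt6, a SNARE protein, was the sole DEG of 50 exosome and ESCRT genes (-0.13, adjusted p = 0.0447). Aplp1, a paralog of the amyloid precursor protein gene, was lower (-0.14, adjusted p = 0.0220). Among 28 tested cholesterol synthesis genes 3 were lower and 0 higher, with Sc5d (-0.21) and Lss (-0.21) among the lower ones. The median of the 28 was -0.01 and 17 were below 0, while against APOE4 the median was 0.03 and 8 were below 0. Sc5d, like Sorl1, lies in the dense window of chromosome 9 from 40 to 45 Mb.

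Summed markers of oligodendrocytes (9020 to 12000 CPM in APOE2, 10000 to 10800 in APOE4D), astrocytes (11600 to 12400 in APOE2, 11700 to 12200 in APOE4D) and endothelium (1240 to 1450 in APOE2, 1250 to 1380 in APOE4D) overlapped. Of 35 tested genes of reactive astrocytes, 3 were higher (Cd109, Gfap and Lcn2) and 2 lower (Iigp1 and Gbp2), against 1.96% and 2.25% of all tested genes, 15 of the 35 were below 0, and their summed levels overlapped, at 801 to 890 CPM in APOE2 and 698 to 884 CPM in APOE4D. Gfap, the intermediate filament of reactive astrocytes, was at 340 to 429 CPM in APOE2 and at 244 to 323 CPM in APOE4D (0.33, standard error 0.09, adjusted p = 0.0332), and it did not pass the threshold against APOE4 (0.21, adjusted p = 0.168). Lcn2, a secreted lipocalin of reactive astrocytes, was at 0.734 to 4.85 CPM in APOE2 and at 0.220 to 0.362 CPM in APOE4D (3.24, standard error 0.85, adjusted p = 0.0393). Among 30 oligodendrocyte genes, 2 were lower and 0 higher, and 20 were below 0. Trf, the transferrin gene made by oligodendrocytes, was among the lower ones (-0.33). Cspg4 was lower (-0.19) and was the sole DEG of 20 oligodendrocyte precursor genes, of which 11 were below 0. Tmem72 was lower (-0.64, adjusted p = 0.00196) and was the sole DEG of 30 choroid plexus genes, of which 15 were below 0. Of 30 homeostatic microglia genes, the receptor gene Gpr34 was lower (-0.25) and Sparc, a matricellular protein gene, was higher (0.18, adjusted p = 0.0367). Of 39 genes of ependyma and motile cilia, Zmynd10, a dynein assembly factor, was higher at 6.49 ± 0.602 CPM in APOE2 and 4.05 ± 0.519 CPM in APOE4D (SD, n = 5 each, 0.68, adjusted p = 6.89e-05), while Dnah6 was lower. Among 44 heat shock and unfolded protein response genes, the transcription factor gene Atf4 was lower (-0.28, adjusted p = 0.000546) and Ddit3, a target of it, was higher (0.25, adjusted p = 0.0260).

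Of the 1550 DEGs of APOE2 against APOE4 (7.39% of genes tested, 813 higher and 737 lower), 631 were DEGs in the same direction against APOE4D, 305 higher and 326 lower. That is 40.7% of the APOE4 list, 71.6% of the 881 DEGs against APOE4D and 3.01% of all tested genes. Without the FH mice 259 genes held and with the FH mice alone 315, and without the APOE2 mouse F42N the APOE4 list had 1023 genes, of which 477 held. The 2 comparisons share the 5 APOE2 libraries, and the count describes what held and is no independent repeat. No gene was a DEG in opposite directions. Of the 919 genes that did not hold, 899 had the same sign against APOE4D and 20 the opposite sign. For 436 of the 631, every APOE2 mouse lay on 1 side of all 10 APOE4 and APOE4D mice, against 628 of all tested genes (3.0%). A fold of 1.5 or more in both comparisons was seen for 238. All 24 genes with the largest changes among non-overlapping DEGs of at least moderate level held, as did the 5 further genes with the smallest p, Wdfy1, Zfp14, Gm44090, Gm16867 and Arhgap33os.

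The differences from APOE4 that did not pass the threshold against APOE4D included some close to it. Serpina3n, a serine protease inhibitor of reactive astrocytes, was at 84.4, 26.1, 94.1, 82.8 and 27.2 CPM in APOE2 and at 115 to 135 CPM in APOE4D (-1.04, standard error 0.29, adjusted p = 0.0523). The APOE2 mice fell into a low pair, at the APOE3 level (26.7 CPM on average), and 3 higher mice, all below APOE4D. Usp18, which trims the interferon-induced modifier ISG15, had a log2 fold change of -1.19 (adjusted p = 0.0579), and Irf7, the transcription factor that amplifies interferon output, had -1.13 (adjusted p = 0.0632). For Usp18 the groups did not overlap, at 1.12 to 1.58 CPM in APOE2 and 2.17 to 4.44 CPM in APOE4D. Rsad2 and Rtp4, also interferon-induced, had -0.60 (adjusted p = 0.118) and -0.64 (adjusted p = 0.166). Among the genes higher than APOE4, Shmt1, a folate enzyme, had 0.82 against APOE4 and 0.30 against APOE4D (adjusted p = 0.402), with APOE4D at 1.92 CPM between APOE2 at 2.39 and APOE4 at 1.35 CPM. Fmo2, Scx, Abhd11os and Gm37069 had log2 fold changes of 0.49, 0.41, 0.29 and 0.55 against APOE4D with adjusted p of 0.2, 0.0975, 0.210 and 0.0817.

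A further 250 genes were DEGs against APOE4D and not against APOE4, of which 242 had the same sign in both. Avp, the vasopressin gene of hypothalamic neurons, was at 27.5, 40.9, 52.3, 36.3 and 29.3 CPM in APOE2 and at 18.3 to 24.5 CPM in APOE4D (0.81, standard error 0.19, adjusted p = 0.0189). Cd109, on chromosome 9, was at 2.61 to 3.08 CPM in APOE2 and at 1.45 to 2.17 CPM in APOE4D (0.71, adjusted p = 0.00121). Lyz2, the lysozyme of macrophages and microglia, was at 22.3 to 32.6 CPM in APOE2 and at 14.6 to 22 CPM in APOE4D (0.59, adjusted p = 0.0125), and C3, the central complement component, had 0.61 (adjusted p = 0.0158). In each of these 4 the APOE4 mean lay between the other groups, at 25.1 CPM for Avp, 2.34 for Cd109, 23 for Lyz2 and 2.81 for C3. Gm47135 was higher by 0.58. The lower ones included Ifit3, Ifit3b, Tmem232 (-0.74) and the carotenoid-cleaving enzyme gene Bco2 (-0.59).

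**Figure D5:**
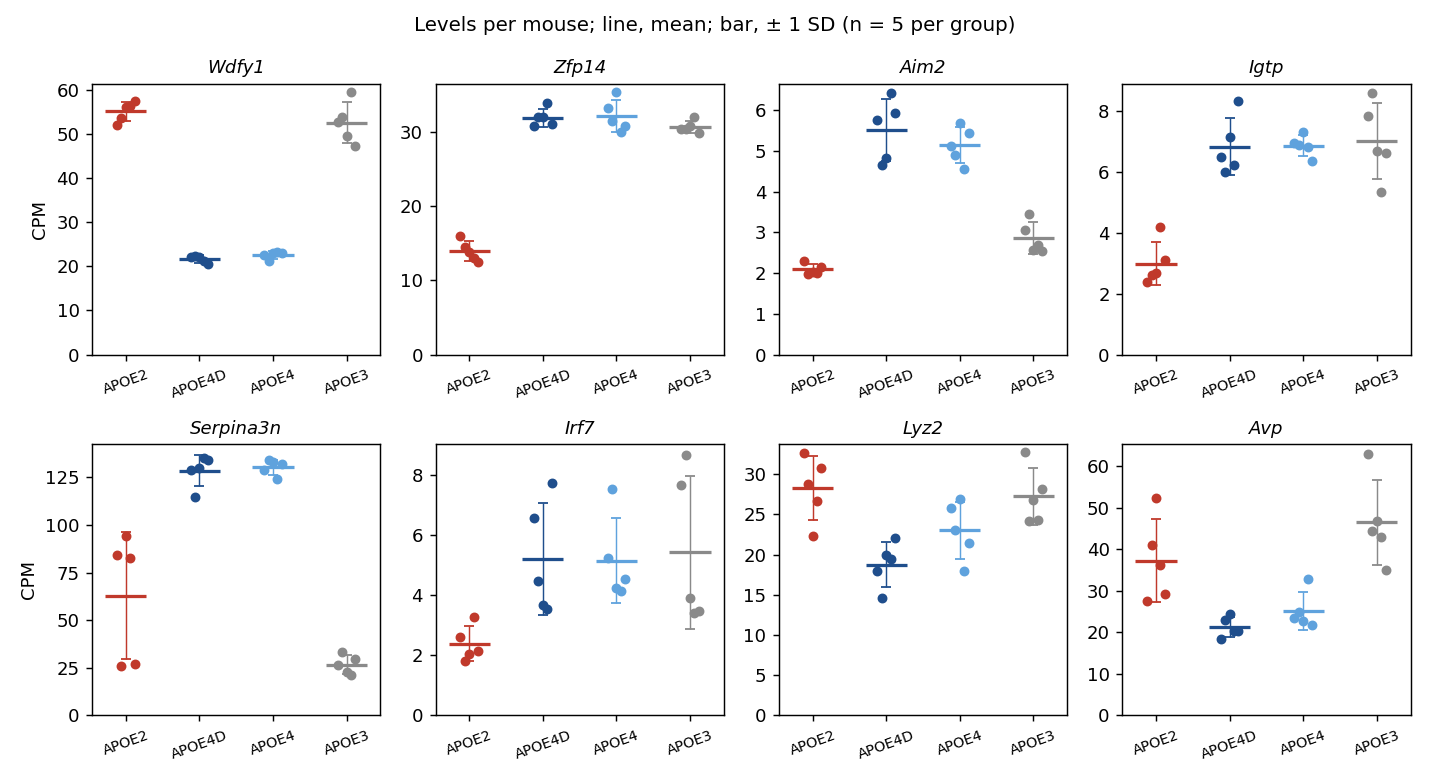
Level in CPM of 8 genes in each mouse of the 4 groups (points), with the group mean (line) and 1 SD (bar), n = 5 mice per group. The upper row holds genes that were DEGs of APOE2 against both APOE4D and APOE4; in the lower row Serpina3n and Irf7 were DEGs against APOE4 and not APOE4D, and Lyz2 and Avp against APOE4D and not APOE4.

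The cohorts of APOE4 mice were also compared directly. Between APOE4D and APOE4, 0 genes were DEGs by edgeR, with 2280 at an unadjusted p under 0.05, 34 DEGs by DESeq2 and 0 by limma-voom. None of the 631 held, 919 not held or 250 further genes passed the threshold there, which does not show that the cohorts were alike. Serpina3n was at 129 CPM in APOE4D and 130 CPM in APOE4 (adjusted p = 0.989). Among FH mice alone, of which APOE3 had none, 941 genes were DEGs between 3 APOE4D and 2 APOE4 mice.

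Several gene groups held no DEG between APOE2 and APOE4D by edgeR, and some of them are given here. These were the 80 cytosolic ribosomal protein genes (8 higher against APOE4), the 46 tested genes that flank Apoe on chromosome 7 (4 higher against APOE4), the 59 lysosomal genes (3 higher against APOE4), the 32 immediate early genes (1 higher against APOE4) and the 57 clustered protocadherins (2 lower against APOE4). Against APOE4, 3.88% of all tested genes were higher and 3.51% lower. At an unadjusted p under 0.05 by edgeR there were 13, 6, 7, 2 and 7 genes in the same order of groups. Of all 20968 tested genes, 3263 had such a p for APOE2 against APOE4D. DESeq2 called 1 ribosomal protein gene, 1 gene flanking Apoe and 1 lysosomal gene, while limma-voom called 0 in each. Their medians against APOE4D were 0.03, 0.07, 0.01, 0.12 and -0.05. Beside Apoe, Apoc1 averaged 3.62 ± 0.865 CPM in APOE2, against 3.37 ± 0.356 CPM in APOE4D (adjusted p = 0.824), while it was a DEG against APOE4 (0.54, adjusted p = 0.0239). Tomm40 averaged 71.0 ± 1.15 CPM in APOE2, against 72.4 ± 2.61 CPM in APOE4D (adjusted p = 0.809). Whether smaller differences exist in these groups was not detectable at this depth and group size. In simulated counts with known changes, 92% of genes changed by 1.5-fold were recovered for APOE2 against APOE4D. Of those changed by the smallest fold tried, which was below 1.5, 60% were recovered. The changes were placed only in genes with a mean above 1 CPM, 50 per fold. The simulated mice held no ID series effect and no mouse that stood apart, so recovery in the real data may be lower. There, 10 unchanged genes were called in the simulation, 5.43% of its calls.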

How the data were processed

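The file used was the table of raw read counts by gene symbol that the authors deposited. Per the labels and the submitters' processing notes, poly(A) RNA was made into stranded TruSeq libraries, read as 50-base single reads, aligned with STAR 2.7.0 to GRCm38 (mm10) and counted with featureCounts. The study's methods instead name GRCm39 and RSEM, and none of these sources states the strand setting or the treatment of multiply aligned reads. The deposited normalized counts and DESeq2 tables (fold changes and p-values) were not used.

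The filter required a CPM above 0.1 in more than 40% of the 10 libraries and left 20968 of 55291 genes. All 20 libraries in 4 groups entered 1 fit with TMM scaling and the robust quasi-likelihood test of edgeR 4.0.16 (R 4.3.3), with Benjamini-Hochberg adjustment over all genes. Positions came from RefSeq for GRCm38.p6, in which 18891 symbols matched directly and 63 by synonym. Copies were aligned to GENCODE M39 protein-coding transcripts with BLAST 2.17.0. Named genes were the 12 DEGs per sign with the largest change, non-overlapping groups and mean log2 CPM no lower than 1, the 10 smallest p, 5 per sign that were DEGs against APOE4 or APOE4D only, and up to 2 DEGs per list. Some genes that this rule names are not reported here. The members and lists were chosen with earlier results of these data known. The fit was tested on simulated counts. Alternatives were other filters, scalings, tools (DESeq2 1.42.0, limma 3.58.1, sva 3.50.0), sample sets, thinning to 1 depth, removal of length and GC trends, and each library left out.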

Additional observations from a re-analysis of the deposited data

Results flagged for a closer look

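Of 204 sets of 5 mice examined (102 named genes in 2 groups), 22 had 1 mouse far from the other 4 by Dixon's test. Chance gives this in about 1 of 20 sets. Flags of Xist were not counted, and Gm16867, with 0 reads in all 5 APOE2 mice, could not be flagged there. The sets share the same mice and are not independent. In 14 of the 22 flagged sets the mouse far from the others was FH111 (APOE2). It was lowest for Gm11942 (53.0 CPM, the others 97.6 to 112), Gm9008 (2.48, the others 5.02 to 6.00), Morf4l1-ps1 (3.81, the others 7.23 to 8.25), Gm13456 (17.5, the others 31.2 to 34.4) and Eef1a1-ps1 (4.47, the others 6.65 to 7.39). It was highest for Gm40518 (4.2 CPM, the others 0.0232 to 0.0664), Bfsp2 (2.80, the others 0.326 to 0.531), 2610507I01Rik (2.94, the others 0.539 to 1.14), 1700063D05Rik (3.53, the others 0.604 to 1.06) and B230217O12Rik (7, the others 2.80 to 3.49). It was also highest for Dcdc2b (3.76 CPM, the others 1.14 to 1.57), C030014I23Rik (3.10, the others 1.74 to 2.05), Dnah6 (4.27, the others 2.53 to 3.01) and H2-T24 (1.90, the others 1.24 to 1.39). In all 14 genes FH111 lay on the APOE4D side of the other APOE2 mice.

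In the other 2 APOE2 sets, F74M was highest for Gm37069 (7.02 CPM, the others 2.94 to 3.78) and F35J lowest for Tmem72 (4.02, the others 6.04 to 6.81). Within APOE4D, FH68 was highest for Gpi-ps (8.05 CPM, the others 5.98 to 6.54) and Txnrd1 (64.5, the others 59.0 to 60.3), FH85 for Abhd11os (3.82, the others 3.09 to 3.29) and FH51 for Cort (8.28, the others 5.30 to 5.57). F12M was lowest for Cd59a (17.6 CPM, the others 20 to 20.6) and Trf (387, the others 424 to 434).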

How the results depend on the processing

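No paired analysis was possible because the groups were different mice and the labels match no APOE2 mouse to an APOE4D mouse. Of 29 genes named for the largest changes or smallest p, 21 kept their call under each of the 24 alternatives in which they were tested and 0 reversed (Gm16867 could be tested under 23, not without the FH mice). Of the 881 DEGs, 29.5% remained without the FH mice and 43.7% with only the FH mice (1 turned), 70.6% to 80.9% with 1 library left out, and 84.8% or more under the other alternatives. Without the FH mice there were 290 DEGs (147 higher, 143 lower, 185 of 1.5-fold or more), 4 lowered GTPases, 0 lowered interferon response genes, 259 held genes and 620 DEGs against APOE4. With only the FH mice there were 165 of 1.5-fold or more, 3 GTPases, 0 response genes, 315 held genes and 941 DEGs between APOE4D and APOE4. With 1 surrogate variable there were 1337 DEGs (642 higher) and 9 response genes, and with APOE4 and APOE4D joined 1456 (747 higher, 709 lower) and 17. Lowered response genes numbered 11 with DESeq2, 8 with length and GC trends removed, 3 with limma-voom (and 5 GTPases), 0 without a filter, 8 with only the 10 libraries and 17 without APOE3. DEGs between APOE4D and APOE4 numbered 34 with DESeq2, 2 without a filter and 7 without APOE3. With 1 library left out, ranges were 651 to 850 DEGs, 305 to 414 higher, 341 to 448 lower, 255 to 317 of 1.5-fold or more, 477 to 643 held, 1023 to 1600 against APOE4, 0 to 2 between APOE4D and APOE4, 5 to 7 GTPases and 0 to 7 response genes. Differences near 0 changed sign. Apoe was at 0.0065 without a filter, 0.021 with the ID series as a term, 0.0765 without the FH mice, 0.0341 with APOE4 and APOE4D joined, and from -0.0275 to 0.0282 with 1 library left out (above 0 without F74M or F35J of APOE2 or FH85, FH68 or FH51 of APOE4D). Tomm40 was at 0.0038 without the FH mice, Apoc1 from -0.007 (without F74M of APOE2) to 0.21 with 1 library left out and at -0.0335 with only the FH mice, where Abhd11os was at -0.0722 and Xist at 0.0175. The cause of these changes was not tested.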
